A study of Mus musculus with 24 samples.

Results

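TRAJ9, TRAJ7, TRAJ6, TRAJ5, TRAJ4 and TRAJ2 are the 6 J segments at the 3′ end of the Tcra J array, the end nearest the constant region gene Trac. They were chosen by position as the last 6 of the 43 J columns in the Tcra tables, and all 6 were measured in all 6 Tcra libraries. The libraries came from thymocytes of Satb1-/- mice (KO, 3 libraries) and of wild-type mice (WT, 3 libraries), aged 4 to 12 weeks and on a C57BL/6 background. The sample labels write the genotype as Satb1-/-, whereas the series design calls it a conditional knockout and names no Cre line; whether animals were pooled is not stated. Satb1 encodes a nuclear protein that organises chromatin in thymocytes, and it is not itself measured in these tables. Values are shares, in percent, of all V–J assignments in 1 library, which was made from total RNA by 5′ RACE (amplification from an adaptor at the transcript's start) with a primer in the constant region. The comparison asked how loss of Satb1 alters which segments are used.

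The alpha chain of the T cell receptor is assembled in double-positive thymocytes by joining a V segment to a J segment, which removes the DNA between them. A cell can repeat the process on the same allele, with V segments farther upstream and J segments farther downstream, until a receptor is selected or the cell dies. The first joins therefore use J segments at the 5′ end, and joins to the last J segments come late in the series.

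The germline sequences of the 6 segments are shown because the J segment forms part of the receptor transcript and is what assigns a read to a column. They are GENCODE M21 transcripts (GRCm38, chromosome 14, plus strand, 5′ to 3′). Capitals mark the first run of the codons TTN, GGN, NNN and GGN, searched on the coding strand in the reading frame only. It holds the codons of the conserved glycine motif of J segments, and 41 of the 43 J columns (95.3%) contain it.
TRAJ9: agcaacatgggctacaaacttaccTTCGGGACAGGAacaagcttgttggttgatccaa
TRAJ7: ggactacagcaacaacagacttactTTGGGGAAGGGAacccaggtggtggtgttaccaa
TRAJ6: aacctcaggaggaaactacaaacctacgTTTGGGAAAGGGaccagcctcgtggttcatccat
TRAJ5: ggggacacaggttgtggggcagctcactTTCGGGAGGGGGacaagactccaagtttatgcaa
TRAJ4: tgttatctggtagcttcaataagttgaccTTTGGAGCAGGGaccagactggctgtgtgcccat
TRAJ2: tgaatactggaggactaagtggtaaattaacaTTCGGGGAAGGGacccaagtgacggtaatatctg
The run begins with TTG, a leucine codon, in TRAJ7, which was so in 2 of the 43 J columns. In the other 5 members it begins with TTC or TTT, the phenylalanine codons, as in 39 J columns in all when TTT (32) and TTC (7) are counted. The segments are between 58 and 66 bases long and are annotated as J genes, not pseudogenes. TRAJ9 lies at chr14:54209393-54209450, TRAJ7 at chr14:54211470-54211528, TRAJ6 at chr14:54212688-54212749, TRAJ5 at chr14:54213777-54213838, TRAJ4 at chr14:54216291-54216353 and TRAJ2 at chr14:54217836-54217901. Together they span 8509 bp, and TRAJ2 ends 2620 bp before Trac. The annotation also places Traj8 and Traj1 (pseudogenes) and Traj3 between Traj9 and Trac. These are not columns of the tables and were not analysed here.

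The libraries differed in resolution and in how their window joins overlapped, and both bear on the results below. The smallest value above 0 was 0.0180%, 0.0593% and 0.117% in KO replicates 1, 2 and 3, against 0.0158%, 0.0157% and 0.0241% in WT replicates 1, 2 and 3. The tables give no counts, but 100% of the values above 0 were whole multiples of the library's smallest value. The window held 174, 16 and 3 times that value in KO replicates 1, 2 and 3. In WT replicates 1, 2 and 3 it held 932, 945 and 361 times that value. Whether that unit is a read or a clonotype is not given, so the depth in reads is unknown. KO replicate 1 also shared rare joins with 1 WT library. It held 26 of the 86 window V–J pairs that WT replicate 1 alone of the WT libraries listed, against 4 of 63 for WT replicate 2 and 1 of 31 for WT replicate 3. The part of this sharing in the results was not tested, and the main results are also given without KO replicate 1.

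In Satb1-/- thymocytes the last 6 J segments together made up 1.48% ± 1.47 of Tcra joins, against 12.8% ± 3.54 in wild-type thymocytes (SD, n = 3 each), 0.116 times the wild-type share. The window held 3.14%, 0.949% and 0.352% in KO replicates 1, 2 and 3, against 14.8%, 14.9% and 8.69% in WT replicates 1, 2 and 3. Every KO library lay below every WT library (exact two-sided permutation p = 0.1). That is the smallest p that 3 against 3 libraries allow, and adjusted over the 7 single values tested it is 0.175. Without KO replicate 1 the KO mean was 0.650%. In these bulk samples, fewer cells carrying such a join and less transcript per cell cannot be told apart. Since shares within a library sum to 100%, a lower share of the window also cannot be told apart from more transcripts of other joins.

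All 6 members fell in the KO. Each passed limma's test on log2 shares at a Benjamini-Hochberg adjusted p of 0.05 over the 43 J segments, of which 46.5% were called lower and 18.6% higher in the KO. Fold changes are on the scale log2(percent + 0.0157). For all 6 members every KO library lay below every WT library, which held for 53.5% of the 43 J segments. The median log2 fold change of the 6 was -3.74, beside a median of -1.54 over all 43. After each library's log values were centred, 4 of the 6 were called lower (all but TRAJ5 and TRAJ4), beside 20.9% called lower and 27.9% called higher over the 43. Centring put the median of all 43 at -0.08 and that of the 6 at -2.29.

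TRAJ9, the first of the group in the array, held 0.668%, 0.119% and 0.234% in KO replicates 1, 2 and 3, against 3.01%, 2.97% and 1.64% in WT replicates 1, 2 and 3. It was listed above 0 in every KO library, and its highest KO value lay below the lowest WT value (log2 fold change -3.12, SE 0.67, limma adjusted p = 0.0221).

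TRAJ7, the member whose motif starts with a leucine codon, held 0.577%, 0.356% and 0.117% in the KO libraries, against 2.36%, 2.58% and 2.00% in the WT libraries. Its WT spread was the narrowest of the 6 relative to its mean (2.31% ± 0.294, against 0.350% ± 0.230 in the KO, SD, n = 3 each). TRAJ7 also had the smallest fitted log2 fold change of the 6 (-2.91, SE 0.59, limma adjusted p = 0.0198). That rank depends on the pseudocount. With the smallest value of the coarsest library (0.117%) as pseudocount, TRAJ7 was at -2.51 and TRAJ5 at -2.03. As a ratio of means, TRAJ7 held 0.151 times and TRAJ5 0.154 times its WT share in the KO.

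TRAJ6 held 0.722% in KO replicate 1 and was listed at 0 in KO replicates 2 and 3, against 3.01%, 3.41% and 1.68% in the WT libraries. The WT mean of TRAJ6, 2.70%, is 45.6 and 23.1 times the smallest value of KO replicates 2 and 3, so a share of that size would have been listed in both. Its fitted log2 fold change was -5.52 (SE 1.60, limma adjusted p = 0.0353). With values at 0 this figure depends on the pseudocount and is no bound: it was -6.19 with the pseudocount halved and -3.58 with the smallest value of the coarsest library.

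TRAJ5 was the least used member in WT. It held 0.253% and 0.119% in KO replicates 1 and 2 and was listed at 0 in replicate 3, against 1.14%, 0.739% and 0.529% in the WT libraries. Its log2 fold change was -3.24 (SE 1.10, limma adjusted p = 0.0432). The WT mean of TRAJ5 is 6.85 times the smallest value of KO replicate 3.

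TRAJ4 was the most used member in WT. It held 0.613% and 0.356% in KO replicates 1 and 2 and was listed at 0 in replicate 3, against 3.71%, 3.40% and 1.97% in the WT libraries. Its highest KO value was again below the lowest WT value (log2 fold change -4.25, SE 1.44, limma adjusted p = 0.0432). This fold change likewise depends on the pseudocount: it was -4.59 with the pseudocount halved and -3.15 with the smallest value of the coarsest library.

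TRAJ2, the last J column before Trac, held 0.307% in KO replicate 1 and was listed at 0 in KO replicates 2 and 3, against 1.54%, 1.76% and 0.866% in the WT libraries. Its KO mean was 0.0736 times the WT mean, the lowest ratio of the 6, and its fitted log2 fold change was -4.97 (SE 1.28, limma adjusted p = 0.0327). As for TRAJ6, this figure is no bound: it was -5.64 with the pseudocount halved and -3.01 with the smallest value of the coarsest library.

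**Figure D1:**
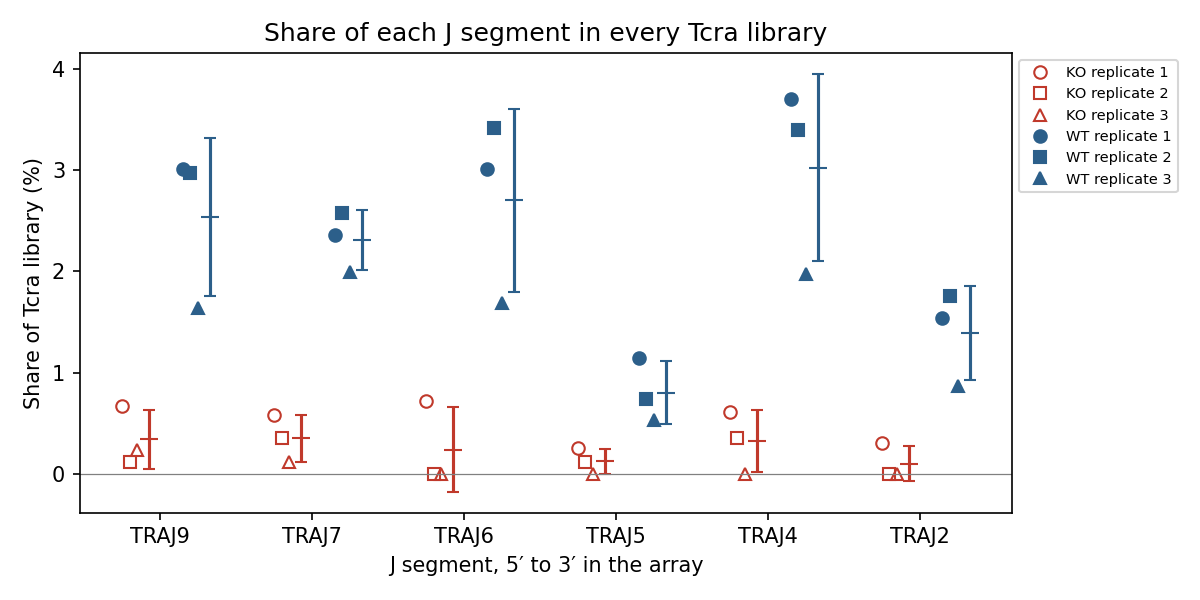
Share of each of the 6 J segments (y axis, percent of a Tcra library) in every library; open red symbols are KO replicates, filled blue symbols WT replicates, and bars the mean ± SD of 3 libraries. Every KO value lies below every WT value of the same segment, and TRAJ6 and TRAJ2 are listed at 0 in KO replicates 2 and 3.

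These calls depended on the libraries kept and on the scale. With each V–J pair counted once in a library, none of the 6 was called (limma adjusted p between 0.10 and 0.186), and the log2 fold change of TRAJ9 was -1.81. With the pseudocount halved TRAJ5 and TRAJ4 were not called. None of the 6 members was called without WT replicate 1 (adjusted p between 0.0864 and 0.125), without WT replicate 2 (between 0.0910 and 0.113) or without WT replicate 3 (between 0.0586 and 0.101), although 4 had an unadjusted limma p under 0.05 in each case. Without KO replicate 2, 2 members were called. Without KO replicate 1 all 6 were called, with limma adjusted p of at most 0.0302 and log2 fold changes between -7.37 and -3.38. TRAJ6 and TRAJ2 were then listed at 0 in every KO library kept. Their log2 fold changes of -7.37 and -6.42 thus set WT against the pseudocount alone, with no spread within the KO.

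In WT the 6 members were ordered TRAJ4 (3.03% ± 0.925), TRAJ6 (2.70% ± 0.905), TRAJ9 (2.54% ± 0.783), TRAJ7 (2.31% ± 0.294), TRAJ2 (1.39% ± 0.466) and TRAJ5 (0.803% ± 0.311; SD, n = 3). TRAJ4, TRAJ6, TRAJ9 and TRAJ7 overlapped in range with their neighbours in that order. The step between TRAJ7 and TRAJ2 was the only one of the 5 at which the WT ranges did not overlap; the difference was 0.924 ± 0.179 percentage points and had the same sign in 3 of 3 libraries. TRAJ2 exceeded TRAJ5 in 3 of 3 WT libraries as well, but their ranges overlapped.

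Relative to its mean, each member's proportion of the window varied less between WT libraries than the window's total did. As a share of the window, TRAJ9 held 20.4%, 20.0% and 18.8%, TRAJ4 25.1%, 22.9% and 22.7%, and TRAJ2 10.4%, 11.9% and 9.97% in WT replicates 1, 2 and 3. TRAJ7 was less steady, at 16.0%, 17.4% and 23.0%, as was TRAJ5, at 7.73%, 4.97% and 6.09%. WT replicate 3 thus had less of the whole window with a larger part of it in TRAJ7. In KO replicate 1, TRAJ9, TRAJ4 and TRAJ2 held 21.3%, 19.5% and 9.77% of the window, against WT means of 19.7%, 23.6% and 10.7%. KO replicates 2 and 3 listed only 15 and 3 window pairs above 0, so their proportions are not given.

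The total of the window was the most variable of the J array in WT. Its coefficient of variation over the 3 WT libraries was 27.7%, against 4.02% to 16.7% for the other 5 groups of neighbouring J segments. All 6 members were lowest in WT replicate 3, which was the lowest WT library for 18 of the 43 J segments. Without that library the WT mean of the window was 14.8%.

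The window was then set against the rest of the array. From 5′ to 3′, the 6 groups of J segments had median log2 fold changes of 1.73 (TRAJ58 to TRAJ48), 0.15 (TRAJ47 to TRAJ38), -0.96 (TRAJ37 to TRAJ30), -2.18 (TRAJ28 to TRAJ18), -4.14 (TRAJ17 to TRAJ11) and -3.74 (TRAJ9 to TRAJ2). The medians of TRAJ17 to TRAJ11 and TRAJ9 to TRAJ2 rest on J segments listed at 0 in KO replicate 3, so they depend on the pseudocount. As shares of the total, the last group held 0.116 times, TRAJ17 to TRAJ11 0.166 times, and TRAJ28 to TRAJ18 0.267 times the WT mean.

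**Figure D2:**
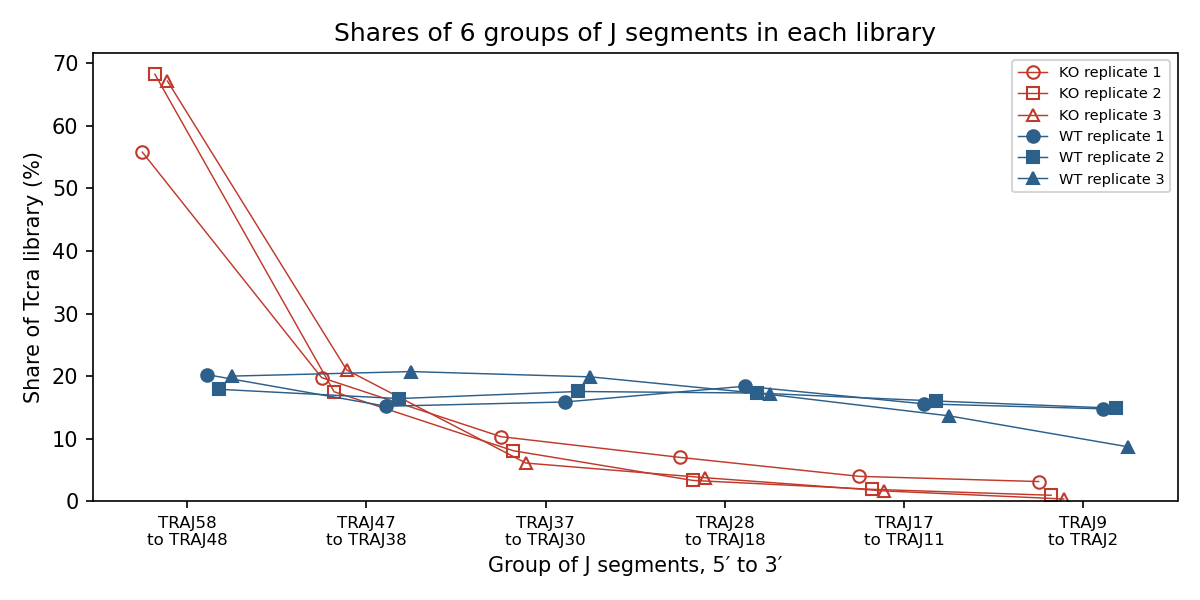
Share of each group of J segments (y axis, percent of a Tcra library) from the 5′ end of the array (left) to the 3′ end (right), with 1 line per library, KO in open red and WT in filled blue. The KO lines drop to between 0.352% and 3.14% at TRAJ9 to TRAJ2, where the WT lines lie between 8.69% and 14.9%.

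The fall of the last group relative to its neighbour was not separable from the spread between libraries. The log2 ratio of the window to TRAJ17 to TRAJ11 was -0.34, -0.99 and -2.17 in the KO libraries, against -0.08, -0.11 and -0.65 in the WT libraries. The groups overlapped, since KO replicate 1 lay above WT replicate 3 (difference -0.89, exact two-sided permutation p = 0.2, adjusted p = 0.28). This difference was -0.38 without KO replicate 3 and -1.30 without KO replicate 1. Against the first group the separation was complete. The log2 ratio of the window to TRAJ58 to TRAJ48 was -4.15, -6.15 and -7.51 in the KO libraries, against -0.45, -0.27 and -1.20 in the WT libraries (exact two-sided permutation p = 0.1, adjusted p = 0.175). The difference was -5.29, and -6.19 without KO replicate 1.

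**Figure D3:**
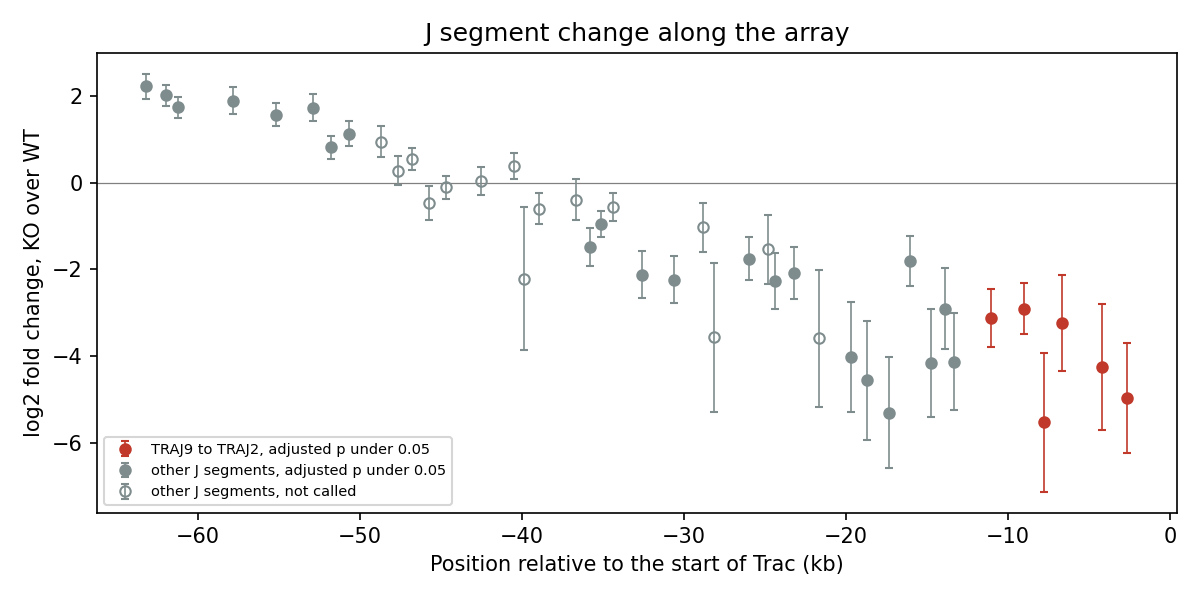
The log2 fold change of each of the 43 J segments, KO over WT (y axis, bars are limma standard errors), by distance from the start of Trac (x axis, kb). The 6 members (red) lie between -5.52 and -2.91 at the right end; filled points passed an adjusted p of 0.05 and open points did not.

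The 3 J segments outside the window with the profile most like its total were TRAJ11, TRAJ18 and TRAJ13. Likeness was the root mean square difference over the 6 libraries of log2 shares, each taken relative to its own WT mean. It was 0.56 for TRAJ11, 0.68 for TRAJ18 and 0.75 for TRAJ13, and TRAJ11 is the J column next to TRAJ9.

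The joins were next followed to the V segments that supplied them. In WT many V segments were joined to every member, whereas 2 of the 3 KO libraries listed few. Of 702 possible pairs of the 117 V rows and 6 J segments, 124, 15 and 3 were above 0 in KO replicates 1, 2 and 3, against 300, 270 and 181 in WT replicates 1, 2 and 3. As a share of all pairs above 0 in the library these were 8.99%, 2.70% and 0.802% in the KO, against 15.2%, 13.7% and 11.5% in WT. Counting Tcra V rows only, 63, 14 and 3 were joined to at least 1 member in the KO libraries, against 91, 79 and 75 in WT (exact two-sided permutation p = 0.1, adjusted p = 0.175). The KO minus WT difference in mean was -55 rows, -73.2 without KO replicate 1 and -43.2 without KO replicate 3. Keeping only pairs with a share of at least 0.117%, which KO replicate 3 could also list, shrank the difference to -9.33 rows. The size of the difference thus depended on the rarer pairs.

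Counts of pairs move with resolution, and the KO libraries were mostly the coarser. Of the 417 window pairs listed in any WT library, 16 had a WT mean at or above the smallest value of KO replicate 3, and none of those 16 was above 0 in that library. For KO replicate 2 the corresponding numbers were 51 pairs, of which 4 were above 0. For KO replicate 1, whose resolution was finer than that of WT replicate 3, they were 195 pairs, of which 89 were above 0.

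The pairs that remained in the KO were nearly all pairs that WT also listed. Of the 702 possible window pairs, 417 were listed in at least 1 WT library. The overlap was not set against that of other J segments, so it is not read as particular to the window. KO replicate 1 shared 123 of its 124 window pairs with at least 1 WT library, 26 of them with WT replicate 1 alone of the 3; the part of that sharing in this overlap was not tested. KO replicates 2 and 3 together listed 18 window pairs, of which 17 were found in WT, and had none in common. The exception, singled out after its values were seen, was TRAV4-4-DV10 with TRAJ5, at 0.0593% in KO replicate 2 and listed at 0 in every WT library. The 3 window pairs of KO replicate 3 were TRAV2 with TRAJ9, TRAV12D-2 with TRAJ9 and TRAV8N-2 with TRAJ7, each at 0.117%, the smallest value of that library.

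TRAV7D-5, a V segment of the distal class, was the leading partner of the window. It supplied 13.2%, 12.5% and 0% of the window in KO replicates 1, 2 and 3, against 11.9%, 11.2% and 10.5% in WT replicates 1, 2 and 3. TRAV12D-3 supplied 6.90%, 0% and 0% in the KO, against 5.58%, 6.67% and 4.71% in WT. TRAV3D-3 supplied 8.05%, 6.25% and 0% in the KO, against 6.22%, 8.57% and 1.11% in WT. These 3 segments exceeded 5% of the window on average in WT, and all 3 are D copies, whose reads can be hard to tell from those of near-identical copies of the same V segment. In the KO, TRAV12D-2, TRAV8N-2, TRAV2 and TRAV14D-1 also averaged at least 5% of the window. For TRAV12D-2, TRAV8N-2 and TRAV2 that average came mostly from the single pairs of KO replicate 3 named above, and for TRAV14D-1 (12.5% in KO replicate 2) it came mostly from its join to TRAJ7.

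**Figure D4:**
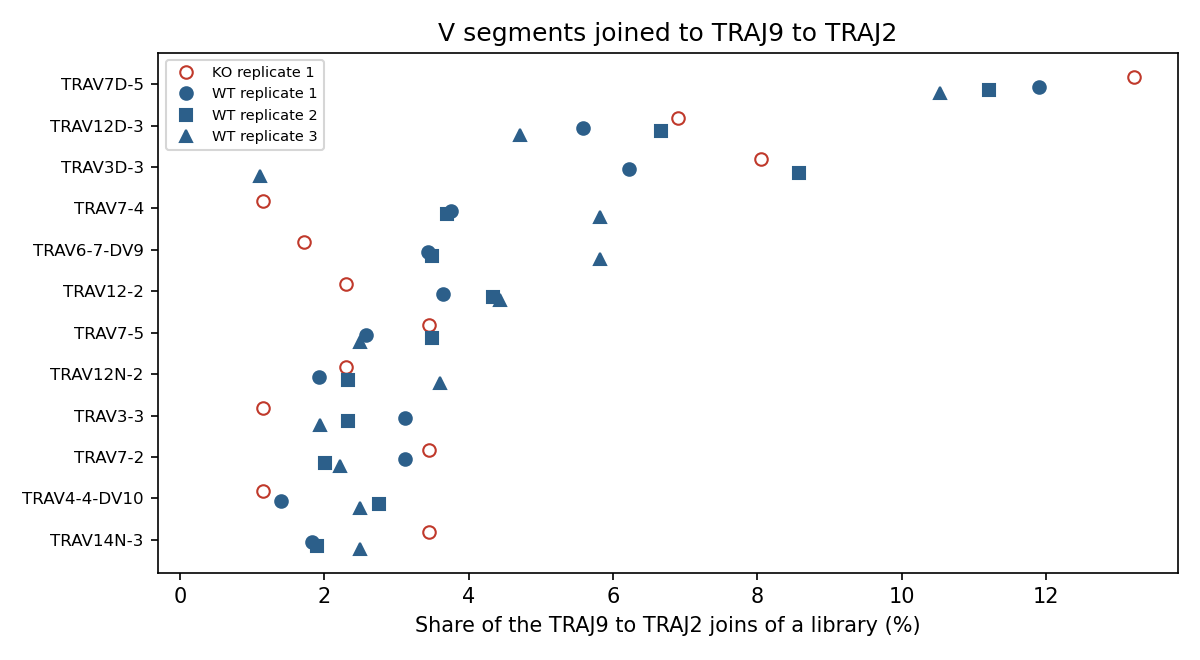
The 12 V segments that supplied most of TRAJ9 to TRAJ2 in WT, as a percentage of a library's joins to those 6 J segments (x axis), in KO replicate 1 (open red) and the 3 WT libraries (filled blue). TRAV7D-5 leads in all 4 libraries, at 10.5% to 13.2%; KO replicates 2 and 3 are left out because they listed 15 and 3 window pairs.

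TRAV7D-5 was among the 3 V segments with the highest WT mean for all 6 members. TRAJ4 was joined most to TRAV7D-5, TRAV12D-3 and TRAV3D-3, with WT means of 0.396% ± 0.162, 0.256% ± 0.0773 and 0.179% ± 0.162 of the library (SD, n = 3). By WT mean TRAJ7 was joined most to TRAV12D-3, whose WT values of 0.412%, 0.173% and 0.0241% differed widely between replicates. TRAV7D-5 with TRAJ7 was higher in WT replicates 2 and 3, at 0.220% and 0.120%, and 0.0241% is the smallest value of WT replicate 3. TRAJ6 was joined most to TRAV7D-5 and TRAV3D-3, and TRAV3D-3 with TRAJ6 likewise ranged over 0.380%, 0.409% and 0.0241% in WT. TRAJ9 had the flattest supply: its 3 leading V segments made up 17.9% of its WT share, against 24.0% to 28.2% for the other 5 members. TRAJ9 was joined to 29, 2 and 2 V rows in the KO libraries, against 65, 55 and 36 in WT. TRAJ5 was joined to 11, 2 and 0 V rows in the KO, against 29, 22 and 17 in WT.

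Of the 202 V–J pairs tested with limma over the whole Tcra table, 8 held a member, and 6 of those were called lower in the KO, beside 12.9% of all pairs tested. Over all 202 pairs 46 were called higher and 26 lower, and after centring 9 higher and 27 lower. These 8 passed the filter on low shares through their WT values, so the count lends no support of its own. The 6 were TRAV7D-5 with TRAJ9, TRAJ7, TRAJ6, TRAJ4 and TRAJ2, and TRAV12D-3 with TRAJ4. TRAV7D-5 with TRAJ6 held 0.0541%, 0% and 0% in the KO libraries, against 0.333%, 0.346% and 0.168% in WT (log2 fold change -3.46, SE 0.81, limma adjusted p = 0.0202). TRAV7D-5 with TRAJ4 held 0.0361%, 0.0593% and 0% in the KO, against 0.317%, 0.582% and 0.289% in WT (log2 fold change -3.32, SE 0.80, limma adjusted p = 0.0202). In these 6 pairs every KO library lay below every WT library, which held for 16.3% of the 202 pairs. TRAV12D-3 with TRAJ7 and TRAV3D-3 with TRAJ6 overlapped between genotypes and were not called (limma adjusted p = 0.105 and 0.0815). The count of 6 was 0 without WT replicate 1 or 2, 3 without WT replicate 3 or KO replicate 3, 1 without KO replicate 2, and 6 without KO replicate 1. Without a filter 18 of 419 window pairs were called lower, beside 3.17% of 3123 pairs called lower. TRAV7D-5 with TRAJ9, TRAJ7 and TRAJ2 was then no longer called (limma adjusted p = 0.0779, 0.0525 and 0.0796).

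The same V segments were then read the other way, by how much of their own share went to the window. Of all TRAV7D-5 joins, 5.13%, 0.858% and 0% used a member in the KO libraries, against 20.9%, 20.6% and 15.8% in WT. TRAV7D-5 itself held 10.1% of KO and 7.43% of WT libraries on average, so its joins to the window were few in the KO while the segment stayed abundant. TRAV12D-3 gave 10.5%, 0% and 0% of its share to the window in the KO, against 15.2%, 26.5% and 12.3% in WT. It held 1.18% of KO and 4.16% of WT libraries on average. In KO replicate 2 it made up 0.299% of joins to other J segments, beside a smallest value of 0.0593%, so the 0% there says little. For TRAV3D-3 the genotypes overlapped, at 21.5%, 20.0% and 0% in the KO, against 20.9%, 28.5% and 4.08% in WT, but this segment held only 0.529% of KO libraries, against 3.74% of WT libraries.

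The V segments nearest the J array rarely joined the last J segments in either genotype. TRAV17, TRAV19 and TRAV21/DV12, the Tcra V segments closest to the J array, together held 18.2%, 12.6% and 21.0% of the KO libraries, against 3.98%, 4.39% and 5.08% of the WT libraries. Of that, the window received 0.0992%, 0% and 0% in the KO, against 2.79%, 3.94% and 2.84% in WT. The genotypes did not overlap, but neither did they for the window as a whole, so this is not particular to these segments. Among the WT libraries, TRAV19 was listed with a member in replicate 1 only. TRAV21/DV12 was listed with no member in any KO library although it held 11.4% ± 3.68 of them (1.94% ± 0.374 in WT, SD, n = 3 each). Of the joins of the delta V segments, 0.796%, 0% and 0% used a member in the KO, against 3.92%, 8.70% and 0% in WT.

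For a summary by position, the 109 Tcra V segments with a position in the annotation were split by distance from the J array into a distal class of 37, a middle class of 36 and a proximal class of 36. Distal V segments supplied 52.9%, 37.5% and 66.7% of the window in KO replicates 1, 2 and 3, against 43.9%, 42.8% and 32.1% in WT replicates 1, 2 and 3. The genotypes overlapped (exact two-sided permutation p = 0.3, adjusted p = 0.3). Proximal V segments supplied 24.7%, 43.8% and 0% in the KO, against 34.7%, 37.0% and 45.7% in WT, with overlap as well (exact two-sided permutation p = 0.3, adjusted p = 0.3).

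Relative to all other J segments of the same library, the window was richer in distal V segments in all 6 libraries. The excess was 33.9, 15.9 and 52.3 percentage points in the KO libraries, against 10.6, 12.6 and 8.33 in WT. Every KO library exceeded every WT library (34.0 ± 18.2 against 10.5 ± 2.12, SD, n = 3 each; exact two-sided permutation p = 0.1, adjusted p = 0.175). The distal share over the other J segments was 19.0%, 21.6% and 14.4% in the KO, against 33.3%, 30.2% and 23.8% in WT, so the larger excess went with a lower distal share elsewhere. The values of KO replicates 2 and 3 rest on 15 and 3 pairs. Their means moved accordingly, to a KO minus WT difference of 14.4 without KO replicate 3, 32.6 without KO replicate 2 and 23.6 without KO replicate 1, beside 23.5 with all libraries. Neighbouring J segments were also rich in distal V segments in WT. The distal share of TRAJ17 to TRAJ11 was 40.0%, 25% and 7.14% in the KO libraries, against 42.0%, 34.9% and 29.8% in WT, and the difference between this group and the window was not tested.

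**Figure D5:**
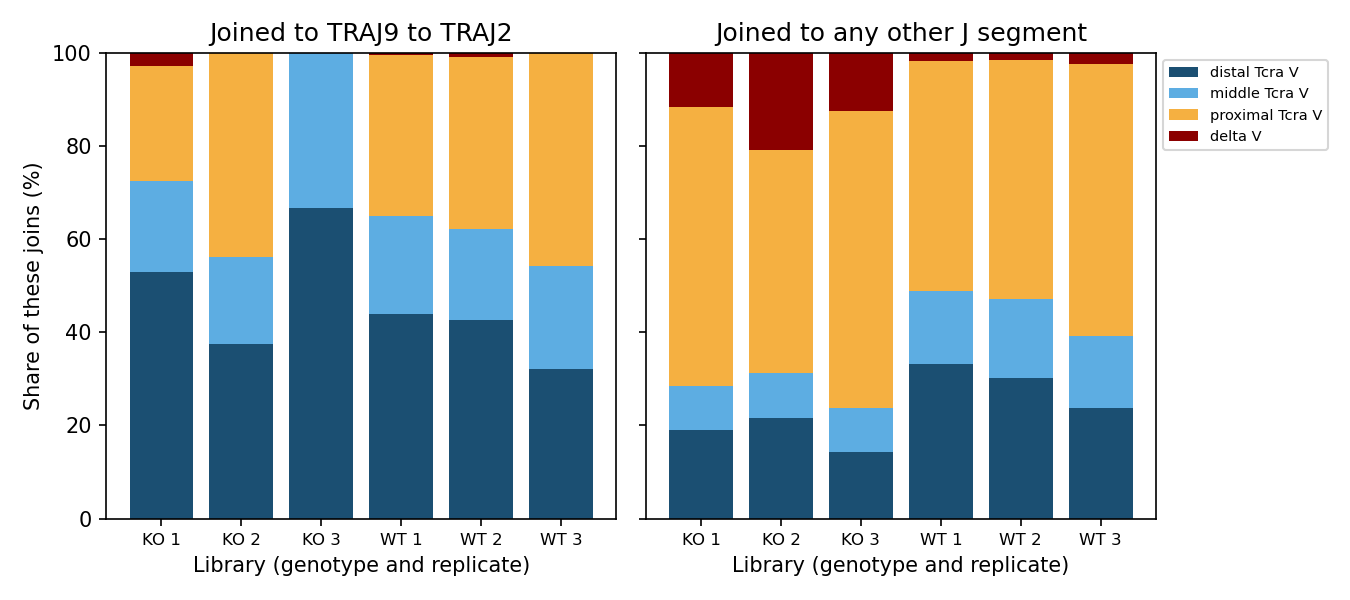
Position class of the V segments (stacked bars, percent) joined to TRAJ9 to TRAJ2 (left panel) and to any other J segment (right panel), with 1 bar per library and KO left of WT. The distal class holds 37.5% to 66.7% of the window in KO and 32.1% to 43.9% in WT, in each library more than it holds among other J segments.

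Among the members, the WT ranges of the distal share all overlapped. The distal class supplied 35.1% ± 4.60 of TRAJ9, 39.7% ± 9.54 of TRAJ7, 39.6% ± 5.91 of TRAJ6, 41.3% ± 16.8 of TRAJ5, 42.9% ± 5.71 of TRAJ4 and 40.8% ± 4.23 of TRAJ2 (SD, n = 3 WT libraries). In KO replicate 1, the library in which all 6 were listed, the distal share of the members was 59.5%, 50.0%, 42.5%, 50.0%, 58.8% and 58.8% in the same order.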

How the data were processed

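The deposited Tcra tables hold, for each of 6 libraries (3 KO, 3 WT), the percent of assignments joining each of 117 V rows to each of 43 J columns; the cells sum to 100, and the marginal sums were left out. Per the submitters' processing notes the authors used fastp; the segment caller, its build and whether reads or clonotypes were counted were not given in the sources used here. Nothing in the labels ties each replicate to its own mouse, so the p-values cover library-to-library spread, which may be technical. No molecular identifiers are named.

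J sums and V–J pairs with a mean of at least 0.1% were fitted with limma 3.58.1 in R 4.3.3 after adding 0.0157%, the smallest value above 0 in any library, and taking log2, with Benjamini-Hochberg adjustment over all J segments or pairs. Single values used exact permutation over 20 arrangements (scipy 1.17.1). Positions and sequences are from GENCODE M21 (GRCm38), matched by name for 114 V rows. The limma fit was tested on data simulated around the WT means with the same spread in both genotypes. That test does not cover the wider spread between the KO libraries and so does not vouch for these calls. Named pairs were the 3 leading V rows of each member in either genotype, called pairs and V rows supplying at least 5% of the window. Members and lists were chosen with earlier results of these data known. Python 3.11.15 was used.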

Additional observations from a re-analysis of the deposited data

How the results depend on the processing

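All 6 members stayed lower in the KO under all 13 alternatives each, and 44 of those 78 fits passed an adjusted p of 0.05. With each V–J pair counted once in a library, 0 of 43 J segments were called by limma (20 at an unadjusted p under 0.05) and 0 of the 6 members (3 unadjusted), with log2 fold changes of -1.81 for TRAJ9, -1.53 for TRAJ7, -3.93 for TRAJ6, -2.28 for TRAJ5, -2.55 for TRAJ4 and -3.89 for TRAJ2. TRAJ5 and TRAJ4 were not called with the pseudocount halved (-3.60 and -4.59) or after centring each library's log values (-1.78 and -2.79), and TRAJ5 was not called with a variance trend (-3.24). Centring left 9 J segments called lower and 12 higher, beside 20 lower and 8 higher without it. The count of 72 called pairs (46 higher) became 140 without a filter (41 higher) and 36 after centring (9 higher), and the 6 window pairs called became 18 without a filter, which held 3 of the 6. Leaving out 1 library gave 0 to 28 called J segments, 0 to 6 members, 7 to 69 pairs and 0 to 6 window pairs. The log2 fold changes then ranged over -3.75 to -2.57 (TRAJ9), -3.38 to -2.30 (TRAJ7), -7.37 to -4.60 (TRAJ6), -4.09 to -2.04 (TRAJ5), -5.26 to -2.60 (TRAJ4) and -6.42 to -4.24 (TRAJ2). The cause of these losses was not tested.

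With a replicate block, 21 J segments and 84 pairs were called, among them all 6 members (adjusted p = 0.0414 each) and 8 window pairs, with TRAV12D-3 with TRAJ7 (0.0349) and TRAV3D-3 with TRAJ6 (0.0242) added. The numbers were not treated as pairing the libraries: each correlated best with its own number over pairs (r of 0.0634, 0.135 and 0.170), a hint from the data, but not over J segments (0.226, -0.201 and 0.274). The 7 single values kept their direction under every alternative run. The window difference of -11.3 percentage points ranged from -13.3 to -10.2 with 1 library left out, and was -4.34 at the least over pairs counted once or kept above the coarsest library's smallest value, and -12.5 with TRAJ11 added. Resolution limits single pairs more than J sums, since a KO replicate 3 value below 0.117% cannot be listed.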

Other observations

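The V segments that supplied the window were also summed by family, a summary chosen after the values were seen. The TRAV7 family, with 14 rows, supplied 27.6%, 18.8% and 0% of the window in KO replicates 1, 2 and 3, against 28.1%, 29.0% and 27.4% in WT replicates 1, 2 and 3. Of 19 TRAV families, 4 (TRAV7, TRAV12, TRAV8 and TRAV2) held more of the window than of all other J segments in every WT library, and 9 held less. In WT the TRAV7 share exceeded the family's share among all other J segments in 3 of 3 libraries (28.2% ± 0.787 of the window, 20.1% ± 0.834 elsewhere, SD, n = 3). TRAV12 supplied 17.7% ± 1.01 of the window and 15.2% ± 1.17 elsewhere in WT. The smaller TRAV8 family supplied 3.49% ± 0.333 of the window and 1.98% ± 0.574 elsewhere in WT, again higher in 3 of 3 libraries. TRAV4 (6.21% ± 1.04 of the window, 8.96% ± 1.19 elsewhere) and TRAV13 (4.57% ± 1.46 and 6.52% ± 0.926) were lower in the window in 3 of 3 WT libraries. Shares of near-identical copies within a family are added here, so these sums do not depend on which copy a read was given to.

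Within WT, some V segments were low in the window in replicate 3, and TRAV3D-3 was not alone in this. TRAV3D-3 held 0.919% and 1.27% of the library through the window in WT replicates 1 and 2 and 0.0963% in WT replicate 3, below the 0.253% of KO replicate 1. TRAV3-4 held 0.190% and 0.299% in WT replicates 1 and 2, against 0.0541% in KO replicate 1. In WT replicate 3 it held 0.0241%, the smallest value of that library. Other V segments did not differ so, such as TRAV6-7-DV9 at 0.507%, 0.519% and 0.505% in WT.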
